A study of Mus musculus with 2 samples.

Results

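Sim1 and Otp encode transcription factors of the developing hypothalamus, and the nuclei described here were selected on UMIs (single captured RNA molecules) of these genes in the E14 mouse brain. A nucleus was a member when it held at least 1500 UMIs, under 5% mitochondrial UMIs and at least 2 UMIs summed over Sim1 and Otp. In all, 917 of 7531 nuclei of at least 1500 UMIs were members, or 12.2% (95% exact binomial interval 11.4 to 12.9), and the library held 9037 barcodes. The other 6614 nuclei were the comparison, and none of the 7531 reached 5% mitochondrial UMIs. The series tests Slide-tags, in which nuclei of a frozen tissue section are tagged with spatial barcodes before single-nucleus RNA-seq. The embryonic library came from a 20 µm sagittal brain section of wild-type C57BL/6J mice at embryonic day 14, with no treatment, and the embryos were bought frozen from a vendor. It is 1 library, so no value below has a replicate check, no test was run, and every interval covers counting error only. Spatial positions were not analysed here. The adult hippocampus library of the series, from a male C57BL/6J mouse of 56 days, entered no comparison, and it shared 1 barcode with the embryonic library.

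Sim1 is a basic helix-loop-helix PAS factor that works with the partner Arnt2, and Otp is a homeobox factor. Both are needed for the neuroendocrine neurons of the paraventricular and supraoptic nuclei of the hypothalamus, which later make vasopressin, oxytocin, corticotropin-releasing hormone, thyrotropin-releasing hormone and somatostatin. Uncx, a homeobox factor, Cbln1, a secreted organiser of synapses, and Crtac1, a secreted extracellular matrix protein, were given as further markers of these neurons.

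The members held 4894 Sim1 UMIs and 1498 Otp UMIs, against 204 and 167 in the other nuclei. Sim1 ranged from 0 to 163 UMIs in a member with a median of 4, and Otp from 0 to 58 with a median of 1. Both genes were found together in 510 members, Sim1 alone in 347 and Otp alone in 60. These values chose the members and are given as a description. Sim1 lies on the plus strand at chr10:50894754-50989152 and Otp on the plus strand at chr13:94875602-94885130 (GRCm38, GENCODE vM21). The bases before the annotated start of Otp are shown because Otp is a rule gene (RefSeq table, GRCm38.p6, chr13:94875386-94875601, plus strand, cut where the first annotated exon begins). Capitals would mark TAATTA, a core bound by homeodomains, TGACGTCA, the cyclic AMP response element, or ACGTG, part of elements bound by PAS factors, on either strand, and this stretch held none of them.
Otp: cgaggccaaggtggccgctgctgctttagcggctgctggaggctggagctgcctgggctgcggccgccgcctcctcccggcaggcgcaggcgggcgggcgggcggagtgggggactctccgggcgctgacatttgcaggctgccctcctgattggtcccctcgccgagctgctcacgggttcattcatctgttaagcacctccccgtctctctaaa

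Members were deeper than the other nuclei, with a median of 7932 UMIs (95% interval of the median 7403 to 8515) against 4712 (4622 to 4799). Since the rule counts UMIs, a deep nucleus passes it more easily. When every nucleus was thinned to 1500 UMIs before the rule was applied, an alternative chosen after seeing the data, 307 nuclei passed.

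The label as hypothalamic neurons was checked by clustering. Clustering of all 7531 nuclei, with Sim1 and Otp left out of the variable genes, gave 23 clusters. In 2 of them at least 50% of the nuclei were members, and these are called the leading clusters. Cluster 9 held 269 members among 382 nuclei (70.4%) and was led by Cartpt, Otp, Sim1, Gm27016, Gm2694, Unc13c, Chst8, Cbln1, Crtac1 and Car10. Sim1 and Otp chose the members, so their place among these genes is no support for the label. Cluster 14 held 158 members among 209 nuclei (75.6%) and was led by Trh, Gm28526, Sall3, Pmfbp1, Onecut3, Gm16551, Mab21l2, Elfn1, Asic4 and Gm20713. Together the leading clusters held 427 members, 46.6% of all. The other 490 members were spread over 20 of the 21 remaining clusters, and cluster 16 held none. Of the region and cell type markers, counted where at least 2 times higher than in the rest and found in enough nuclei, cluster 9 held 4 of 8 prethalamic and 1 of 14 tuberal hypothalamic factors. Cluster 14 held 2 of 8 prethalamic, 1 of 14 tuberal and 3 of 7 Cajal-Retzius genes, so few tuberal factors marked either cluster. Pan-neuronal genes, such as Tubb3 and Dcx, summed to 6716 CPM in the leading clusters, 5085 CPM in the other members and 4902 CPM in the other nuclei. Since 490 members lay outside the leading clusters, all 917 are called Sim1/Otp nuclei here rather than neurons of 1 type.

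**Figure D1:**
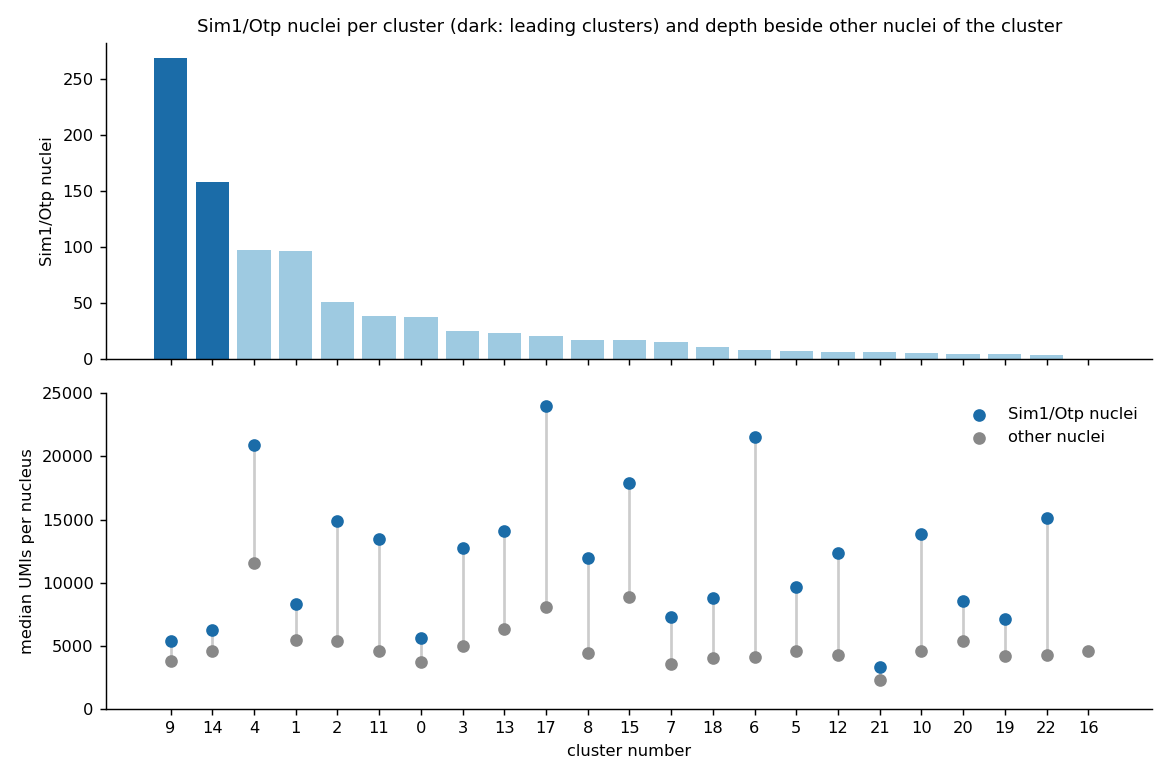
Number of Sim1/Otp nuclei in each of the 23 clusters (top, dark bars for the leading clusters) and median UMIs per nucleus of Sim1/Otp nuclei and other nuclei of the same cluster (bottom). Clusters 9 and 14 held 269 and 158 of them, and in each cluster with any the Sim1/Otp nuclei were the deeper ones.

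Markers of several other cell types were found in some of the members outside the leading clusters. Clusters 4 and 1 held 97 and 96 members. Of the region and cell type markers, cluster 4 held 0, and cluster 1 held 3 of 8 prethalamic and 1 of 11 telencephalic factors. Cluster 2, led by genes of cortical excitatory neurons such as Slc17a7, Neurod2 and Neurod6, held 51 members. Cluster 11, fibroblast-like by 8 of 8 markers, held 38, cluster 17, choroid plexus-like by 7 of 8, held 20, and cluster 15, endothelial-like by 8 of 8, held 17. The members of clusters 11, 17 and 15 carried the markers of the cluster they lay in. Col3a1, a fibrillar collagen, stood at 1023 CPM (UMIs per 1000000) in the 38 members of the fibroblast-like cluster and at 962 CPM in its other nuclei. Ttr, the transthyretin gene made in choroid plexus, stood at 19535 CPM in the 20 members of the choroid plexus-like cluster and 22088 CPM in its other nuclei. Flt1, an endothelial VEGF receptor, was at 347 CPM in the 17 members of the endothelial-like cluster and 781 CPM in its other nuclei.

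Members outside the leading clusters also carried genes of the leading clusters. In the fibroblast-like cluster Unc13c, a vesicle priming factor, stood at 264 CPM in members and 53.3 CPM in the other nuclei, and Uncx at 29.3 and 7.07 CPM. In the endothelial-like cluster the Unc13c levels were 175 and 21.1 CPM, and in cluster 2 they were 279 and 22.1 CPM. Of the 11 clusters outside the leading ones with at least 15 members, Unc13c, Uncx, Crtac1 and Cartpt were each higher in members than in the other nuclei of the cluster in 11, and Cbln1 in 10. Slc17a6 was higher in members in 9 and Gad2 in 4. Some of these counts were low, with 1 Cartpt UMI in members of cluster 7 and 1 in cluster 17, where the intervals overlapped. In these 11 clusters the median depth of members was 1.5 to 2.97 times that of the other nuclei.

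A doublet score moved with the same split. Among the 653 barcodes of highest Scrublet score of all 9037, the number expected at this load, were 136 of the 490 members outside the leading clusters (27.8%, 23.8 to 31.9), 3 of the 427 inside them (0.703%, 0.145 to 2.04) and 468 of the 6614 other nuclei (7.08%, 6.47 to 7.72). Outside the leading clusters the share differed by cluster. In cluster 4, 52 of the 97 members were in this highest-scoring set (53.6%), and in cluster 1, 6 of the 96 (6.25%). Among the other nuclei of clusters 4 and 1 the shares were 32.1% and 4.60%, so the share also differed by cluster outside the members. The part of joined nuclei, free RNA or nuclear depth in the spread of members over clusters was not tested. The main results are given for all members and for the leading clusters.

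Levels by the number of Sim1 and Otp UMIs show the nuclei on both sides of the threshold. Uncx stood at 10.9 CPM (9.96 to 12.0) in 6243 nuclei with 0 UMIs of the rule genes, at 21.4 CPM (16.8 to 26.8) in 371 nuclei with 1, and at 50.3 CPM (39.9 to 62.6) in the 184 members with exactly 2. It was 58.2 CPM (47.9 to 70.2) in the 63 members with 16 or more. The intervals of the 5 member classes overlapped, and none of them overlapped that of the nuclei with 0. Cbln1 stood at 14.8, 28.3 and 45.3 CPM in nuclei with 0, 1 and 2 UMIs and at 78.3 CPM from 16 UMIs. The share of nuclei in the leading clusters was 1.55% at 0 UMIs, 18.1% at 1, 38.0% at 2, 36.0% at 3, 48.1% at 4 to 7, 56.4% at 8 to 15 and 50.8% from 16. The leading clusters were defined by their share of members, so higher shares from 2 UMIs follow in part from that definition. These shares are a description and no support for the threshold.

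**Figure D2:**
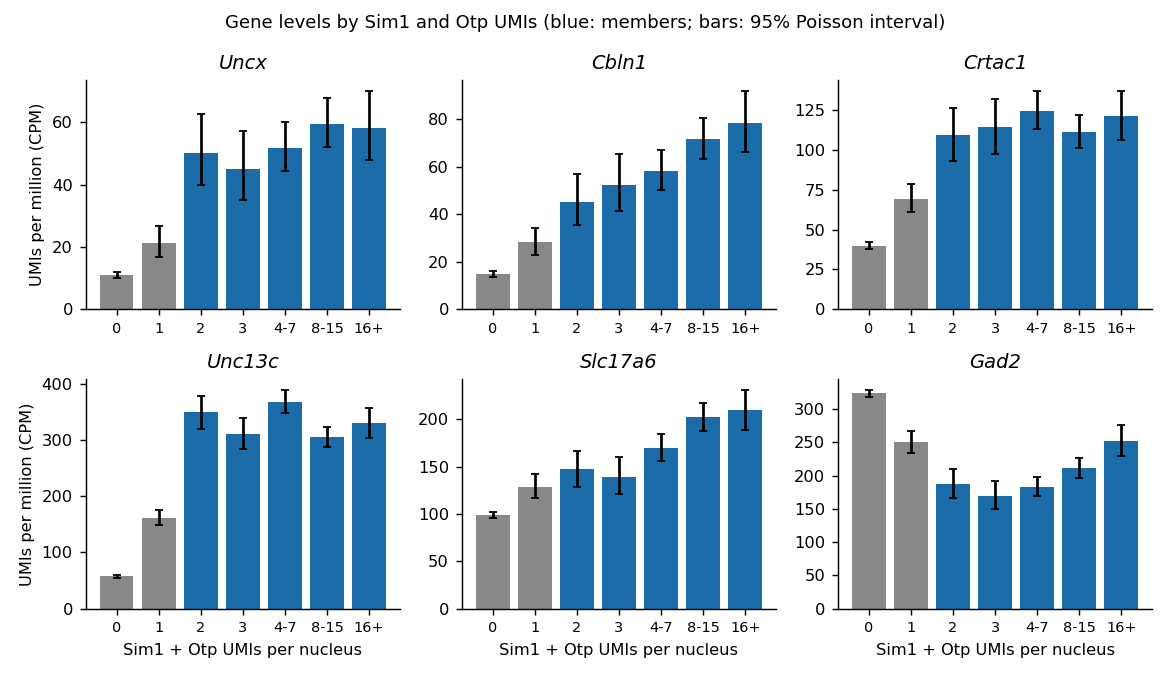
Levels in CPM (vertical axes) of Uncx, Cbln1, Crtac1, Unc13c, Slc17a6 and Gad2 in nuclei grouped by summed Sim1 and Otp UMIs (horizontal axes, members in blue), with 95% Poisson intervals. Uncx was at 10.9 CPM with 0 UMIs and 50.3 CPM with 2, while Gad2 was at 324 CPM with 0 UMIs and 187 CPM with 2.

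Against the other nuclei, 124 of 16178 genes looked at (0.766%) were at least 2 times higher in members and 280 (1.73%) at least 2 times lower, with Sim1 and Otp left out and a median ratio of 0.968 over all 16178. A gene was looked at when members held 20 UMIs of it or the other nuclei led to an expectation of 20 there. With the members of the leading clusters alone, 299 of 12605 genes (2.37%) were at least 2 times higher and 1414 (11.2%) at least 2 times lower. The clusters were made from these same genes, so the second pair of counts is a description.

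The gene with the highest ratio was Cartpt, which encodes the CART peptides. Its 687 UMIs in members gave 56.6 CPM against 4.20 CPM in the other nuclei, a ratio of 13.5 (11.5 to 15.9). In the leading clusters the ratio was 34.8 (29.3 to 41.4). Trh, the thyrotropin-releasing hormone precursor, followed at 10.8 times (8.18 to 14.5), Avp, the vasopressin precursor, at 9.91 times (6.48 to 15.5), and Sim2, the paralog of Sim1, at 9.58 times (6.90 to 13.5). Fezf1, a zinc finger factor, stood at 6.16 times (4.99 to 7.64) and Mtnr1a, a melatonin receptor, at 6.11 times (4.35 to 8.65). Unc13c had the most UMIs of this group, 4037 in members, at 5.06 times (4.82 to 5.30) the level of the other nuclei. Rxrg, a retinoid X receptor, was 4.64 times higher (3.36 to 6.44) and the long noncoding RNA Gm27239 4.43 times (3.30 to 5.95). The antisense RNA 1700013M08Rik, which overlaps Arhgap24, was 5.72 times higher (3.69 to 8.97) on 55 UMIs.

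The given markers were all higher in members. Uncx stood at 4.62 times the level of the other nuclei (4.11 to 5.18), Cbln1 at 3.98 times (3.59 to 4.41) and Crtac1 at 2.75 times (2.57 to 2.95). In the leading clusters the ratios were 8.94, 9.94 and 5.56. In members outside them the levels were lower than inside but above those of the other nuclei, at 35.8 CPM for Uncx, 28.8 CPM for Cbln1 and 73.4 CPM for Crtac1 against 11.7, 15.9 and 42.3 CPM. Cbln2, a relative of Cbln1, was 2.09 times higher (1.83 to 2.39), and these were the 2 of 8 genes looked at among cerebellins and their receptors past the fold.

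**Figure D3:**
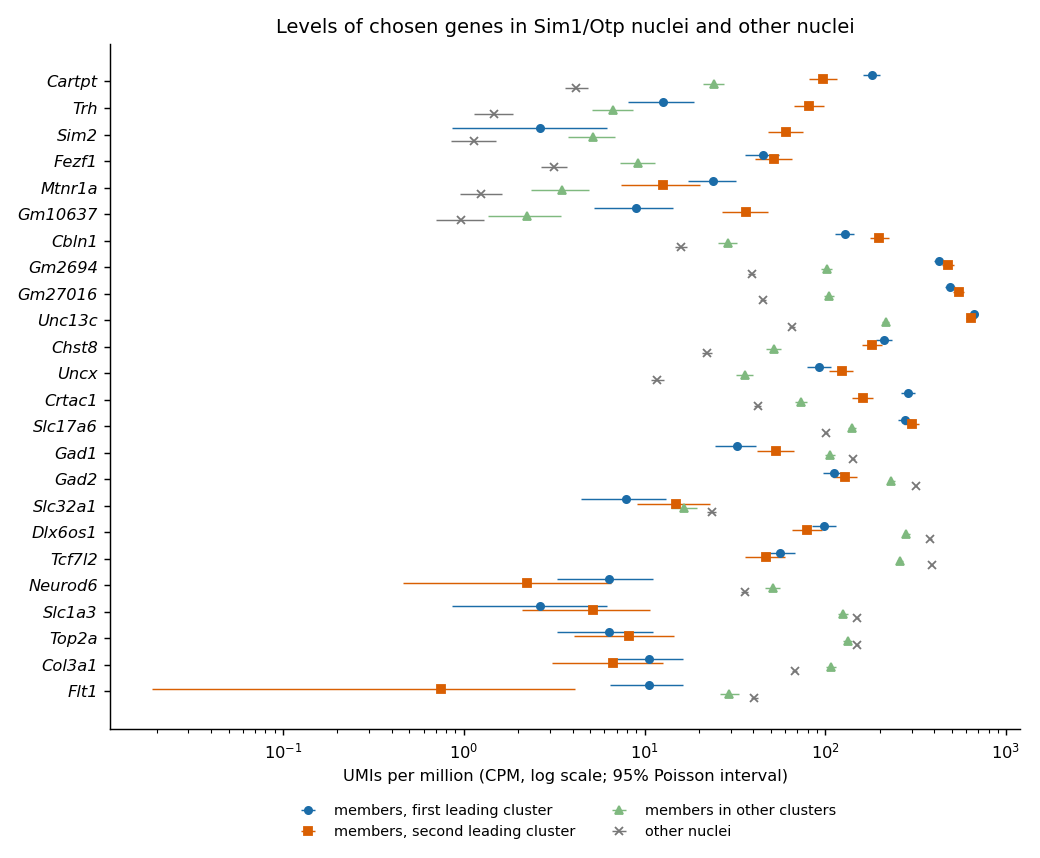
Levels in CPM (horizontal log axis, 95% Poisson intervals) of 24 genes in members of the first leading cluster (cluster 9), the second (cluster 14), members in other clusters and other nuclei. For Unc13c the levels were 664, 640, 216 and 65.8 CPM in that order, and for Top2a 6.36, 8.18, 134 and 150 CPM.

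Several of the highest genes are neighbours on chromosome 8. The stretch chr8:87169747-87525554 (GRCm38, GENCODE vM21), 356 kb long, touches 11 annotated genes, and 6 of them had enough UMIs to be looked at. These were the long noncoding RNAs Gm10637 at 7.32 times, Gm2694 at 4.96 times, Gm27016 at 4.72 times, Gm27246 at 4.60 times and 1700120C18Rik at 4.16 times the level of the other nuclei, and Cbln1 at 3.98 times. In the leading clusters the ratios of the 6 ran from 9.94 for Cbln1 to 21.1 for Gm10637. Gm2694 (plus strand, chr8:87460469-87525554) runs antisense across Cbln1 (minus strand, chr8:87468405-87472609), Gm27016 and 1700120C18Rik, and Gm10637 and Gm27246 overlap each other on opposite strands. Cell Ranger by default counts reads on the strand of the gene, but the setting used is not given in the sources used here, so the split of reads between such overlapping pairs is uncertain. RefSeq places the start of Gm2694 inside the GENCODE gene, between Cbln1 and Gm27016. Gm10637 (chr8:87169747-87199850) overlaps none of Cbln1, Gm2694 and Gm27016. The windows before the starts of Gm2694 (chr8:87472961-87473115, plus strand) and Gm10637 (chr8:87199851-87200100, minus strand) are printed because the genes of the stretch were high together, again from the RefSeq table, GRCm38.p6, without annotated exons, and with the motifs named above in capitals.
Gm2694: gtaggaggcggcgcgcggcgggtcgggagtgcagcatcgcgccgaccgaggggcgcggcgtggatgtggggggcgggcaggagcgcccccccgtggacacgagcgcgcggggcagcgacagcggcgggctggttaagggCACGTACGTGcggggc
Gm10637: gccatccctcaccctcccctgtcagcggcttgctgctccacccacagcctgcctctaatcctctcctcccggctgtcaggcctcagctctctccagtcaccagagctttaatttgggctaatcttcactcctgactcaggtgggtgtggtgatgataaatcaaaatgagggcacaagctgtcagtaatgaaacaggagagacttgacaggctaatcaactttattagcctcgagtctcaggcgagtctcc

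Gm2694 held ACGTG 2 times and Gm10637 none of the 3 motifs. Over both strands of 22 RefSeq windows, each 250 bases before to 50 after a start, found for 17 of the described genes, ACGTG lay in 13.6% against 19.6% of all 32851 windows, TAATTA in 9.09% against 5.29%, and TGACGTCA in 9.09% against 1.79%. The TGACGTCA windows were those of Cartpt and Uncx. These are matches of letters only.

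The lowest ratios in members were those of Dkk2, a secreted Wnt inhibitor, at 0.222 (0.132 to 0.353), Ikzf1, a blood cell transcription factor, at 0.300 (0.208 to 0.422), Apbb1ip, expressed in leukocytes, at 0.301, Pgm5 at 0.307, Slc38a5, an amino acid transporter, at 0.310, the noncoding RNA Adap2os at 0.316, the cell cycle factor E2f8 and the gamma-glutamyltransferase Ggt5 at 0.325, Aplnr, the apelin receptor of endothelium, at 0.329 and Rasgrp3 at 0.331. Marker lists of other cells were not low as a whole over all members, where erythroid genes summed to 862 CPM against 534 CPM in the other nuclei, choroid plexus genes to 1585 against 1392 and fibroblast genes to 254 against 228. The sums in the leading clusters were 301, 265 and 29.7 CPM. Of the 12 cell cycle genes 0 were past the fold over all members, but 10 of 12 were at least 2 times lower in the leading clusters, with a median ratio of 0.214 beside 0.963 for all genes there. The shares of all genes that were lower were 1.73% over all members and 11.2% in the leading clusters. Top2a, a topoisomerase of dividing cells, stood at 0.665 of the other nuclei in all members and at 0.0473 (0.0300 to 0.0711) in the leading clusters. Of 10 progenitor genes 7 were lower in the leading clusters, with Slc1a3, a glutamate transporter of radial glia, at 0.0247 (0.0128 to 0.0432).

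The regional lists were described in the leading clusters, against all other nuclei and with genes that also made the clusters. Of all genes looked at there, 11.2% were at least 2 times lower and 2.37% higher, with a median ratio of 0.963. Of 11 telencephalic factors looked at, 10 were at least 2 times lower there, and the list had a median of 0.225. All 6 thalamic factors looked at were lower, with a median of 0.234, among them Tcf7l2 at 0.135 (0.115 to 0.157). Lmx1a, a mammillary and midbrain factor, had 0 UMIs in the 427 nuclei and 1807 in the other nuclei, and the other mammillary factors looked at, Lmx1b and Emx2, stood at 0.0367 and 0.114. Among 4 tuberal hypothalamic factors looked at, Fezf1 was 15.2 times higher (12.0 to 19.1), while Nkx2-1, a homeobox factor of the ventral hypothalamus, stood at 0.182 and Isl1 at 0.399. The prethalamic list split, with Lhx5 at 3.09 times, Ebf3 at 3.45, Zic1 at 2.48 and Ebf1 at 2.32, and Lhx1, Pax6 and Meis2 at 0.324, 0.0964 and 0.111. Over all members, 1 of the 8 prethalamic genes looked at (Ebf3, at 2.55 times) and 1 of the 8 tuberal ones (Fezf1) were past the higher fold, and none of the 11 telencephalic ones. The share of all genes past it was 0.766%.

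Factors of the neuroendocrine lineage were higher in part. Of 13 such factors besides the rule genes, 4 were at least 2 times higher over all members, Sim2, Uncx, Onecut1 and Onecut3, and Nkx2-2 was lower at 0.451 (0.298 to 0.661). Onecut1 stood at 2.18 times and Onecut3 at 2.52 times. The list had a median ratio of 1.49 beside 0.968 for all genes, of which 0.766% were at least 2 times higher. Among leading-cluster members 6 of 12 looked at were higher, Nhlh2 and Onecut2 being added at 3.00 and 4.29 times, Fezf2 was lower at 0.203, and the median was 2.36 beside 0.963. The share of all genes that were higher there was 2.37%. Arnt2, the partner of Sim1, was at 231 CPM in members and 220 CPM in the other nuclei, a ratio of 1.05 (1.01 to 1.10). Pou3f2, a POU factor that acts with this lineage, stood at 1.49 times (1.35 to 1.63).

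For the transmitter genes, Slc17a6, the vesicular glutamate transporter of the diencephalon, was 1.77 times higher in members (1.68 to 1.86), and Gad1 and Gad2, which make GABA, stood together at 0.630 (0.608 to 0.653). In the leading clusters these ratios were 2.83 and 0.347. With each nucleus thinned to 1500 UMIs, 25.4% of members had a Slc17a6 UMI (22.6 to 28.4), 33.7% of those in the leading clusters and 12.0% of the other nuclei, and 69.7% of members had one at full depth. In the other nuclei of the endothelial-like cluster, which should lack the gene, the thinned share was 2.52% at a median depth of 8879 UMIs, beside 7932 in members. Gad2 was found in 8.20% of thinned members of the leading clusters and in 12.6% of the thinned endothelial-like nuclei. Its level was 112 CPM in members of cluster 9 and 50.0 CPM in the other nuclei of that cluster. In cluster 14 the levels were 128 and 45.0 CPM. At full depth 16.7% of cluster 9 members and 21.5% of cluster 14 members held both Slc17a6 and Gad1 or Gad2. The source of the Gad2 UMIs was not tested.

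Against the 1044 other nuclei with at least 2 Slc17a6 UMIs, chosen on that gene, members were still higher in the given markers, at 3.43 times for Uncx, 3.02 for Cbln1 and 2.13 for Crtac1. In that comparison 229 of 16086 genes were at least 2 times higher in members and 230 lower. Slc17a6 itself stood at 0.593 there, since those nuclei were picked for it, and Gad1 with Gad2 at 1.09. Of these 1044 nuclei 53 lay in the leading clusters, against 4 of 2405 nuclei picked for Gad1 or Gad2 without Slc17a6 and 2 of 27 picked for the ventromedial genes Nr5a1 or Fezf1.

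The peptides of the mature neuroendocrine neurons were found unevenly. Oxt and Crh, the oxytocin and corticotropin-releasing hormone precursors, had 0 UMIs in the members, where 3 UMIs over the members' 12141806 are the limit that a count of 0 allows. The other nuclei held 4 Oxt and 8 Crh UMIs, too few for a comparison with the members. Avp had 82 UMIs in 18 members, up to 16 in 1 nucleus, and the other nuclei held 31 UMIs in 31 nuclei with no more than 1 each. Of the Avp UMIs 64 lay in 14 members outside the leading clusters, 16 in 3 members of cluster 9 and 2 in 1 of cluster 14. Cartpt was found in 172 members with up to 59 UMIs in 1, and Trh in 87 with up to 10. Sst, the somatostatin precursor, had 566 UMIs in 136 members and stood at 1.56 times the level of the other nuclei (1.41 to 1.72), and Adcyap1, the PACAP precursor, was 2.78 times higher (2.28 to 3.38). Of 16 peptide genes looked at, 4 were at least 2 times higher and Pomc was lower, with a median of 1.13. The shares of all genes were 0.766% higher and 1.73% lower, with a median of 0.968. Among leading-cluster members 5 of 9 were higher, among them Trh at 28.2 times and Sst at 2.04 times, Npy and Pmch were lower at 0.426 and 0.115, and the median was 2.04. For all genes there the shares were 2.37% higher and 11.2% lower, with a median of 0.963.

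Of 15 genes of the secretory granule, Pcsk2, a prohormone convertase, was past the fold at 2.32 times (2.24 to 2.41). Cadps2, which primes dense-core vesicles, stood at 1.62 times over all members and at 2.51 times in the leading clusters. Among 19 hormone and peptide receptors looked at, Tacr1, the substance P receptor, was higher at 3.22 times (2.81 to 3.68), and 0 were lower. Of 32 glutamate and GABA receptor genes, Gabrg3 was higher at 2.45 times (2.38 to 2.53), and of 35 axon guidance genes and 29 calcium and potassium channel genes 0 were past the fold in either direction over all members, with medians of 0.842 and 1.05. Over all genes 0.766% were higher and 1.73% lower, so a count of 0 in lists of this size lies near that share. In the leading clusters 3 guidance genes were higher, the receptors Plxnc1, Unc5a and Nrp2 at 2.36, 2.26 and 2.13 times, and 15 were lower. Of all genes there, 2.37% were higher and 11.2% lower.

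The members of the leading clusters differed from each other in named factors and peptides. Of 10370 genes looked at, 289 (2.79%) were at least 2 times higher in members of cluster 9 and 604 (5.82%) at least 2 times higher in those of cluster 14. These members were told apart by the same genes, so the values are a description. Sim2 had 5 UMIs in the 269 members of cluster 9 and 82 in the 158 of cluster 14, or 2.65 and 61.0 CPM, a ratio of 23.0 (9.47 to 72.8). Onecut3, Onecut1 and Onecut2, cut-homeobox factors, stood at 11.9, 3.45 and 3.05 times the cluster 9 level in cluster 14, and Ebf2 and Ebf3 at 27.3 and 3.20 times. Sall3, a zinc finger factor, was at 240 CPM in cluster 14 and 5.83 CPM in cluster 9, and Gm27239, which lies beside it, had 58 UMIs in cluster 14 and 1 in cluster 9. The noncoding RNAs Gm20713 and Gm28526 stood 110 times (53.3 to 276) and 50.3 times (31.1 to 86.9) higher in cluster 14, and Gpc5, a heparan sulfate proteoglycan, 33.9 times (26.1 to 44.8). Trpc5, a cation channel, Tgfb2 and the glutamate receptor Grm4 were 24.3, 21.5 and 21.3 times higher there.

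The peptides divided along the same line. Trh stood at 81.8 CPM in cluster 14 and 12.7 CPM in cluster 9, Sst at 122 and 17.5 CPM, Ghrh, the growth hormone-releasing hormone precursor, at 14.9 and 1.06 CPM, and Adcyap1 at 41.7 and 17.5 CPM. Cartpt went the other way, at 181 CPM in cluster 9 and 97.5 CPM in cluster 14, a ratio of 1.85 that is under the fold. Of 7 peptide genes looked at, 5 were past the fold, all of them higher in cluster 14. Over all genes, 5.82% were at least 2 times higher in cluster 14.

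Cluster 9 was higher in Brinp3 at 6.59 times (5.41 to 8.09), in its antisense partner Gm15584 at 11.3 times, and in Mef2c, a MADS-box factor, at 5.54 times (4.30 to 7.24). The split of reads between Brinp3 and Gm15584 is uncertain for the same reason. Zfhx3, a homeobox factor, stood at 3119 CPM in cluster 9 and 831 CPM in cluster 14, Pcsk2 at 799 and 263 CPM, Zic1 at 449 and 149 CPM, and Kcnip4, a potassium channel partner, at 1768 and 516 CPM. Among the receptors, Grm5 was higher in cluster 9 at 3.29 times, and Grm8 in cluster 14 at 5.70 times. Pcdh10, a protocadherin, and Kcnc2, a potassium channel, were 6.06 and 5.58 times higher in cluster 14. Slc17a6 did not separate them, at 277 and 301 CPM, nor did Unc13c at 664 and 640 CPM or Fezf1 at 45.0 and 52.1 CPM, and the interval of each ratio held 1.

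**Figure D4:**
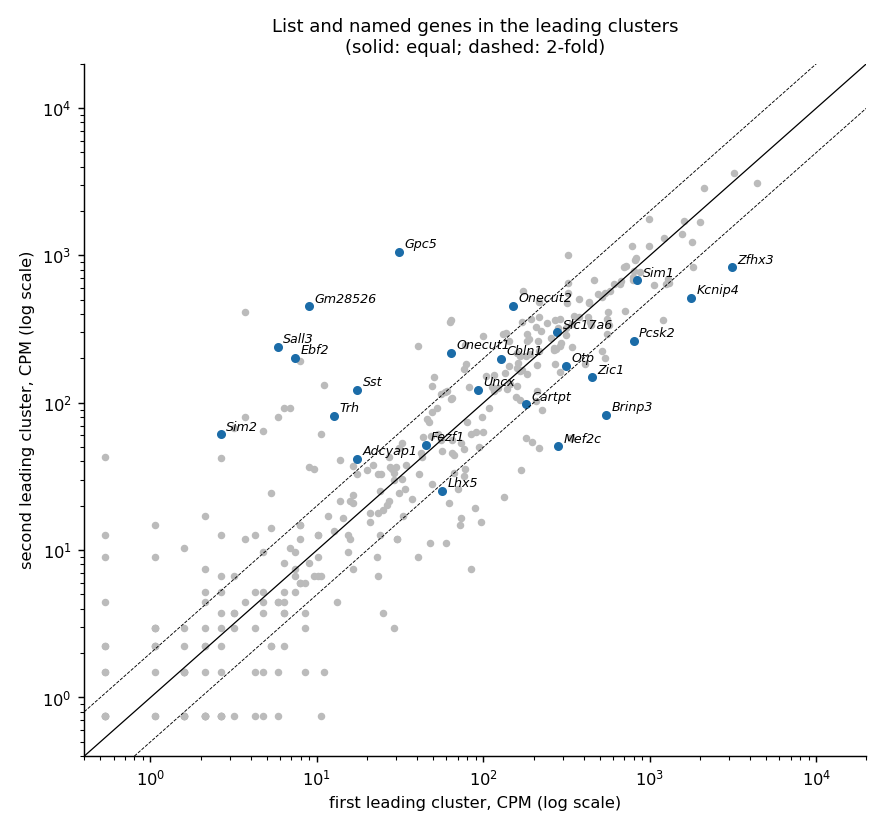
Levels in CPM of list and named genes in members of the first leading cluster (cluster 9, horizontal) and the second (cluster 14, vertical), both on log axes, with lines at equality and at a 2-fold difference. Sim2, Sall3, Gm28526, Gpc5 and Ebf2 lie above the upper line and Brinp3, Mef2c, Zfhx3 and Pcsk2 below the lower one.

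The split into these clusters depended on the settings. With resolution 1.6 there were again 2 clusters made mostly of members, with 424 of them. With 4000 variable genes, with 20 principal components, and with Sim1 and Otp kept among the variable genes there was 1, with 439, 390 and 453 members.

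The balance of the rule genes differed between clusters. Otp made up 27.2% of the Sim1 and Otp UMIs of members in cluster 9 (25.3 to 29.1) and 20.8% in cluster 14 (18.5 to 23.3). In the 96 members of cluster 1 it made up 9.39% (7.15 to 12.0), on 531 Sim1 and 55 Otp UMIs, and 68 of them were Sim1-only. In the 37 members of cluster 0, led by Gata3, Pmch and Gm45194, it made up 51.6% (42.6 to 60.5), and 15 of them were Otp-only. The interval of cluster 1 lay below those of both leading clusters, and that of cluster 0 above them. Cluster 1, led by B230323A14Rik, Samd3 and Gpr149, was also the one outside the leading clusters with the highest Uncx level in its other nuclei among those with at least 15 members, at 49.6 CPM (42.7 to 57.2).

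**Figure D5:**
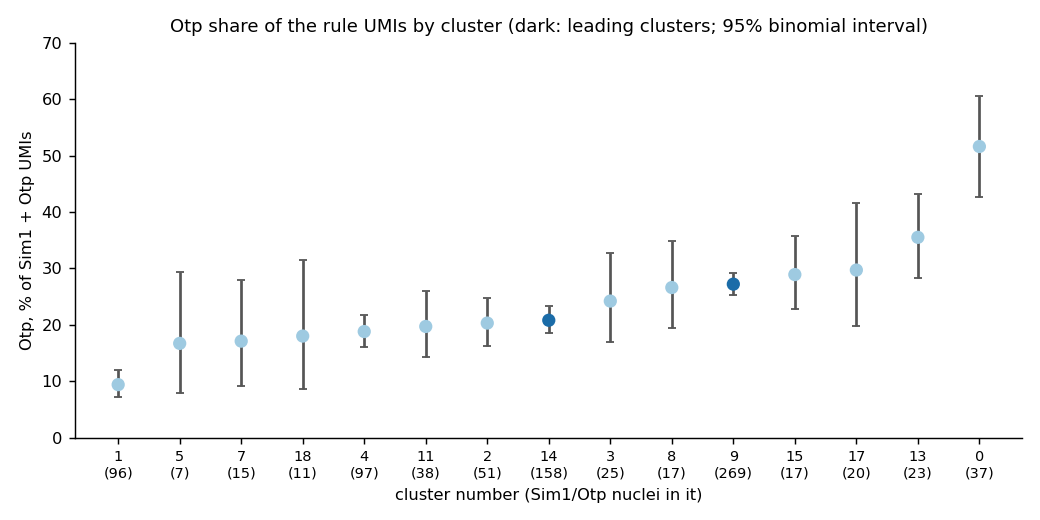
Otp as a percentage of all Sim1 and Otp UMIs in the members of each cluster with at least 50 such UMIs (95% exact binomial intervals), with the number of members under each cluster number. Cluster 1 stood at 9.39% and cluster 0 at 51.6%, with the leading clusters 14 and 9 at 20.8% and 27.2%.

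Sim1-only and Otp-only members were compared last. The 347 Sim1-only members had a median of 7212 UMIs (6353 to 7829) and the 60 Otp-only members 7577.5 (5828 to 8465), and the groups held 3844797 and 507726 UMIs in all. Of 13447 genes looked at, 1204 (8.95%) were at least 2 times higher in Sim1-only members and 757 (5.63%) in Otp-only members. The median ratio was 1.01. Among Sim1-only members 14.4% had a doublet score in the highest set (10.9 to 18.6) and among Otp-only members 6.67% (1.85 to 16.2), and erythroid genes summed to 1516 and 293 CPM. The part of either in the differences was not tested.

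The genes leading the Sim1-only side came from few nuclei. Col3a1 had 667 UMIs in Sim1-only members and 1 in Otp-only members, a ratio of 88.1 (15.8 to 3484). The 22 Sim1-only members of the fibroblast-like cluster, which held 0 Otp-only members, gave 92.8% of those UMIs. They gave 98.7% of the 638 UMIs of H19, an imprinted noncoding RNA, 97.5% of the 1036 UMIs of Ptgds, a prostaglandin synthase of the meninges, 95.4% for Ranbp3l, 94.2% for the transporter Slc6a13, 92.1% for Col1a2 and 87.3% for Col1a1. Lpar1, a lysophosphatidic acid receptor, followed at 68.0%. Of 8 fibroblast genes looked at, 7 were past the fold, with a median ratio of 15.5, and the summed fibroblast list stood at 521 CPM in Sim1-only and 23.6 CPM in Otp-only members. Over all genes, 8.95% were higher in Sim1-only members and 5.63% lower. Of 13 lineage factors, Sim2, Uncx (2.41 times) and Onecut3 were higher in Sim1-only members and Nkx2-2 was lower. Of 12 peptide genes looked at, 5 were higher and 4 lower, and of 12 cell cycle genes 5 were higher and 0 lower.

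On the Otp-only side Sst was 6.42 times higher (4.78 to 8.60), with 89 UMIs in 20 of the 60 nuclei and 105 UMIs in 36 of the 347 Sim1-only nuclei. Isl1, a LIM homeobox factor, was 4.18 times higher (3.10 to 5.60), Six3 3.85 times (2.41 to 6.02) and Ecel1, an endopeptidase of neurons, 3.59 times (2.34 to 5.40), each found in 19 or 20 Otp-only nuclei. The leading clusters held 21 of the 60. There the 125 Sim1-only nuclei held 723170 UMIs and the 21 Otp-only nuclei 101066. In that order they held 17 and 1 UMIs of Isl1, 9 and 2 of Six3 and 12 and 2 of Ecel1. Such low counts give no direction for any of these genes. Sst had 18 and 12 UMIs there. Gm14582 was 5.78 times higher, on 55 UMIs in 12 nuclei. Other genes rested on 1 nucleus. Htr2c had 366 UMIs of which 365 were in 1 nucleus, Apoe 199 with 186 in 1, and the myosin Myo5b 31 with 26 in 1. Of 8 tuberal hypothalamic factors looked at, 6 were at least 2 times higher in Otp-only members, namely Nkx2-1, Nr5a1, Isl1, Six3, Six6 and Bsx, and 0 in Sim1-only members, with a median Sim1-only to Otp-only ratio of 0.249. Over all genes, 5.63% were at least 2 times higher in Otp-only members. Among the 6 factors, Nr5a1, Six6 and Bsx rested on 3, 4 and 5 UMIs in 2, 4 and 3 Otp-only nuclei. Isl1 had 1 Otp-only UMI in the leading clusters, too few to give a direction there.

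Inside the leading clusters there were 125 Sim1-only, 21 Otp-only and 281 double members. The Sim1-only nuclei divided into 61 in cluster 9 and 64 in cluster 14, and the Otp-only nuclei into 18 and 3. There, Pde4b, a phosphodiesterase, had 164 UMIs against 1, a ratio of 22.9 (4.06 to 911), and Oprm1, the mu opioid receptor, 139 against 1, a ratio of 19.4 (3.43 to 773). Meis2 was 12.6 times higher (3.43 to 105). Gm28526 had 198 UMIs against 0, which gave 9.22 times with a floor of 3 counts for the Otp-only group. Its exact lower limit was 7.43 times. Higher in Otp-only members were Cntnap5b, a contactin-associated protein, at 3.29 times (2.20 to 4.84), Brinp3 at 2.74 times (2.16 to 3.46) and Fbn2, a fibrillin, at 2.56 times (1.69 to 3.79). Between the clusters, Oprm1, Gm28526 and Trh had 281 against 45, 609 against 17 and 110 against 24 UMIs in clusters 14 and 9. Meis2, Pde4b and Cntnap5b did not follow the same split, with 141 against 312, 175 against 272 and 206 against 194 UMIs, on 1344265 and 1886903 UMIs in all. The part of the uneven split between the clusters in these differences was not tested.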

How the data were processed

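The deposited values of the E14 brain library are whole-number UMI counts per gene and barcode, made by the authors with Cell Ranger (7.0.1 in the file header) on mm10 with introns counted. The study's methods name CellBender for background removal, and whether these counts precede it is not given in the sources used here. Each kept nucleus held 1500 to 208500 UMIs. Levels are UMIs summed over a set per 1000000 (CPM), with exact Poisson intervals, and shares have exact binomial (Clopper-Pearson) intervals, all at 95%. Ratios have exact intervals from the binomial split of the UMIs and were tried on simulated data. The simulation drew Poisson counts per group, so it did not cover genes whose UMIs lie mostly in few nuclei. Genes with 20 UMIs, found or expected, were looked at and counted past a ratio of 2 or 0.5, with a floor of 3 counts per group for a gene at 0. There is 1 library, so no p-value was computed.

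Clustering used Seurat 5.3.0 in R 4.3.3 (2000 variable genes without Sim1 and Otp, 30 components, resolution 0.8). Scrublet in scanpy 1.11.5 scored doublets, which were kept. Its automatic threshold marked 1 barcode and was not used, and the 653 highest scores, at 0.8% per 1000 nuclei, were taken instead.

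Named genes were the 15 highest and 10 lowest ratios with 50 UMIs, the 8 highest on each side between Sim1-only and Otp-only members with 30 UMIs, genes leading a cluster, and genes of 31 lists. Other genes that differ between the leading clusters or inside them, and the neighbours on chromosome 8, were chosen after their values were seen. Members and lists were chosen with earlier results of these data known. Alternatives changed the depth, filters, fold, comparison nuclei and clustering.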

Additional observations from a re-analysis of the deposited data

How the results depend on the processing

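With 1 library, counting error is the only error shown, and genes under 20 UMIs could not be described. No paired analysis was possible because there is 1 embryonic sample. Of 81 alternative values, 44 stayed close to the reported one, 35 moved and 2 reversed. Counts of genes at least 2 times higher and lower in members, 124 and 280, became 75 and 123 with 50 UMIs per gene, 36 and 37 at a fold of 3, and 203 and 932 with the mean of each nucleus' own share. Against Slc17a6 nuclei 229 genes were higher, and 437 were lower with the others weighted to the depth of the members.

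Without likely doublets the ratios were 1.94 for Slc17a6, 0.560 for Gad1 and Gad2, 5.35 for Uncx, 4.42 for Cbln1 and 3.10 for Crtac1, and with depth weighting 0.660 for Gad1 and Gad2, 5.91 for Uncx and 4.83 for Cbln1. Against Slc17a6 nuclei, Slc17a6 reversed to 0.593, as those nuclei were picked for it, and Gad1 and Gad2 to 1.09, and Uncx, Cbln1 and Crtac1 stood at 3.43, 3.02 and 2.13. Alternatives chosen after seeing the data were the leading clusters alone, with 299 and 1414 genes and ratios of 2.83, 0.347, 8.94, 9.94 and 5.56, and thinning before the rule, with 307 members. Of the 307, 214 lay in the leading clusters (69.7%).

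Sim1-only and Otp-only gene counts became 640 and 303 with 50 UMIs per gene, and in the leading clusters 795 were higher in Sim1-only members. The share of members in their leading cluster, 29.3%, became 49.4% with Sim1 and Otp kept, 47.9% with 4000 variable genes and 42.5% with 20 components. The Slc17a6 share became 40.9% thinned to 3000 UMIs and 69.7% not thinned. The causes of the other moves were not tested.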

Other observations

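In the adult hippocampus library Sim1 had 2 UMIs in 2 of 1661 barcodes and Otp had 0, and 0 of its 1333 barcodes of at least 1500 UMIs passed the rule. Among the members outside the leading clusters, erythroid genes summed to 1065 CPM, against 301 CPM in the leading clusters and 534 CPM in the other nuclei, and choroid plexus genes to 2063, 265 and 1392 CPM. Agrp, a peptide of arcuate neurons, was found in 8.40% of thinned members and in 11.9% of thinned endothelial-like nuclei. The source of these UMIs was not tested.

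Of the 591 nuclei in the leading clusters, 164 were not members, and 67 of these held 1 UMI of Sim1 or Otp.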
